A study of Mus musculus with 16 samples.

Results

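The genes examined here encode the NF-kB family, as the 5 subunits (Rel, Rela, Relb, Nfkb1 and Nfkb2) and 5 members of the IkB family that bind them (Nfkbia, Nfkbib, Nfkbie, Nfkbiz and Bcl3). They were chosen by name, as members of the family, and all 10 were found once each among the 21898 genes listed and were among the 11559 genes tested. RNA sequencing was performed on bone marrow-derived monocytes (BMDMs) of C57BL/6 mice in 4 groups of 4 libraries, to examine BRD9 during the start of osteoclast differentiation. Every culture received the macrophage growth factor M-CSF at 50 ng/ml. The groups M + vector and M + iBRD9 received no RANKL, and MR + vector and MR + iBRD9 received RANKL at 100 ng/ml, the cytokine that drives macrophages towards osteoclasts. Cells were treated for 1 day with vector, the control treatment, or with iBRD9, which blocks the bromodomain of BRD9. That protein belongs to the non-canonical form of BAF, a complex that remodels chromatin. Replicates are numbered 1 to 4 in each group, and whether each is its own culture or animal is not stated. The p-values therefore cover the spread among these libraries, and that spread may be technical.

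NF-kB proteins bind DNA as dimers. The subunits Rela, Relb and Rel carry a transactivation domain, whereas Nfkb1 and Nfkb2 are made as the precursors p105 and p100, which are processed to p50 and p52. Nfkbia, Nfkbib and Nfkbie encode the cytoplasmic inhibitors IkB alpha, beta and epsilon, which are phosphorylated by the IKK complex and degraded when the canonical pathway is switched on. Nfkbiz and Bcl3 encode nuclear members of the family that modify transcription by p50 or p52 dimers. RANKL acts through its receptor RANK on both the canonical pathway and the non-canonical pathway, in which the kinase NIK triggers processing of p100 and releases Relb. Mice that lack both Nfkb1 and Nfkb2 form no osteoclasts. Several of the genes, Nfkbia and Nfkb2 among them, are known targets of NF-kB themselves.

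Total counts per library ranged from 15372775 to 18987926, and the 10 genes had between 158 counts (Bcl3) and 3540 counts (Nfkb2) in a library. Levels are given as CPM, read counts per 1000000 reads scaled with TMM factors, and as FPKM, which is per length, wherever genes are set against each other. The 10 macrophage markers summed to 21690 to 26454 CPM in every library. Most of that sum was Lyz2, at means of 16544 CPM in M + vector and 19962 CPM in MR + vector. Of the 10, 7 were called lower in MR + vector than in M + vector, against 20.6% of all genes, and 1 (Lyz2) was called higher. Mrc1 went from 2033 to 498 CPM. Under iBRD9, RANKL gave 8 of the 10 called lower and 0 higher, against 25.8% and 24.6% of all genes. The summed osteoclast markers were at 232 to 248 CPM in M + vector, 250 to 266 in M + iBRD9, 783 to 839 in MR + vector and 902 to 944 in MR + iBRD9, with the calcitonin receptor gene Calcr at 0 counts throughout. Most of the sum with RANKL was Mmp9, whose mean went from 73.1 to 666 CPM with vector and from 90.8 to 783 CPM with iBRD9. Of the 8 osteoclast markers tested, 4 were higher in MR + vector than in M + vector (Mmp9, Ctsk, Dcstamp and Ocstamp), 2 were lower (Atp6v0d2 and Itgb3, by -1.16 and -1.20 on the log2 scale), and Nfatc1 and Acp5 were not called. The background was 20.1% of all genes called higher and 20.6% called lower, so that 2 of 8 lower was near it. In MR + iBRD9 against MR + vector, Mmp9 was higher (0.23, adjusted p = 0.00198 by edgeR) and Ctsk was lower (-1.44, adjusted p = 1.04e-07). B cell, T and NK cell, and mast cell markers summed to at most 3.84, 1.26 and 1.56 CPM. Cd3d, Cd3e and Cd8a were at 0 counts in all libraries. Erythroid and megakaryocyte markers, mostly Pf4, summed to 189 to 239 CPM without RANKL and to 88.1 to 121 CPM with it, and stromal markers to 18.0 to 24.5 CPM and 11.7 to 21.4 CPM. The part of these cells in the results was not tested. In such bulk samples, fewer cells of a type and less RNA per cell cannot be told apart.

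The promoters of the genes were examined first for the sequence that NF-kB itself binds. RefSeq promoters (250 bases before to 50 bases after a transcript start, build GRCm38.p6) were at hand for Rel, Rela, Nfkb2, Nfkbia, Nfkbib, Nfkbie and Bcl3, with 3 starts for Nfkb2, and all 9 windows matched GRCm39 exactly at 1 place. The kappaB consensus, searched on both strands, had a match in 7 of the 9 windows, 3 of them those of Nfkb2, and in 5 of the 7 genes. Of all 32851 promoters of this length 4.51% held one, and of their genes 5.14% did. The looser pattern GGGNNNNNCC, of which the consensus is a special case, was found in 8 of the 9 windows and in 50.8% of all promoters. Rela and Nfkbib had no match to the consensus in these windows. A match is a description of the letters and not of binding. The 250 bases before the start are printed for 3 genes that carry a match there and that differed widely in their response to RANKL, with the bases of the matches in capitals. They lie at chr12:55539433-55539682 (minus strand) for Nfkbia, chr17:45866376-45866625 (plus strand) for Nfkbie and chr11:23720970-23721219 (minus strand) for Rel, all in GRCm39 and outside the span that the deposited table gives for Nfkbia and Nfkbie.
Nfkbia: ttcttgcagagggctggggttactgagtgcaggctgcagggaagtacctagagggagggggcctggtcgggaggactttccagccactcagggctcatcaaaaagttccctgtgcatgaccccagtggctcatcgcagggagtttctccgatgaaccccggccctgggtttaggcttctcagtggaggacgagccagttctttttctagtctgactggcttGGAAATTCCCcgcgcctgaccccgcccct
Nfkbie: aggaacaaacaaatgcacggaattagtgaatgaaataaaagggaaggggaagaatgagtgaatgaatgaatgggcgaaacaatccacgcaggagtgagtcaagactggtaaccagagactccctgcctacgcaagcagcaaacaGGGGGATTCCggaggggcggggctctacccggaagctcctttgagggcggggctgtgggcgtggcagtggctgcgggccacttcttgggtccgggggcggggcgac
Rel: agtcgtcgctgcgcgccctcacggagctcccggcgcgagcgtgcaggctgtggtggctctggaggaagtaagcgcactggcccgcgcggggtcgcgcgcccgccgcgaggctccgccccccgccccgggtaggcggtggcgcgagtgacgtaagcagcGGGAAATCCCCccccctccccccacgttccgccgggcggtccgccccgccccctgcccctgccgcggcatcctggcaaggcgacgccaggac
The match of Nfkbia began 29 bases before the start and that of Nfkbie 106 bases before it. In Rel, 3 overlapping matches on both strands began 92 and 91 bases before a RefSeq start that lies 295 bases from the nearest GENCODE start. The first start of Nfkb2 had overlapping matches on both strands at GGGAATTCCC, 39 bases before it, and another at GGGGCTTTCC, 11 bases before it. The other starts of Nfkb2 lie close together, and their windows share the match GGGACTTTCC. The single match of Bcl3, GGGACTTCCC on the opposite strand, began 2 bases after its start.

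**Figure D1:**
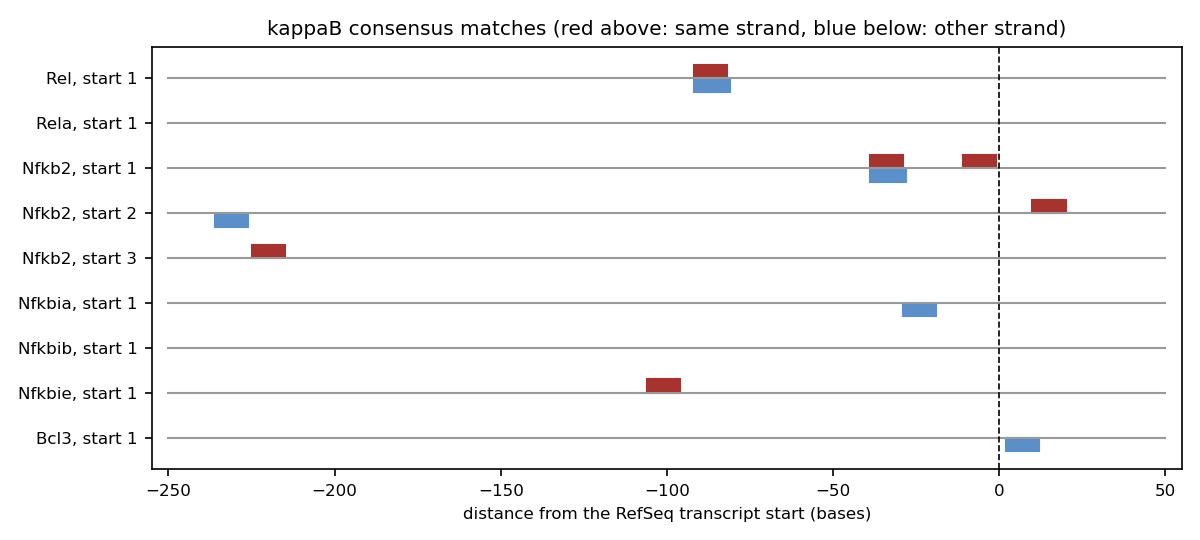
Matches to the kappaB consensus in the 9 promoter windows of 7 genes, by distance from the RefSeq transcript start in bases (dashed line at 0), with matches on the strand of the gene above each line and those on the other strand below it. Rela and Nfkbib have none, and the matches of Rel and of the first Nfkb2 start are overlapping matches on both strands.

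To find how the family responded to RANKL, MR + vector was compared with M + vector. All 10 genes were higher with RANKL by edgeR's quasi-likelihood test (adjusted p below 0.05 over the genes tested), by a median of 0.92 on the log2 scale, and the background was 20.1% of all genes called higher. For all 10 the libraries of the 2 groups did not overlap, as held for 38.1% of all genes. The sizes fell widely apart: Nfkb2, Nfkbia, Nfkbie, Relb and Bcl3 rose between 2.55-fold and 5.02-fold, whereas Nfkbiz, Nfkbib, Nfkb1, Rela and Rel rose between 1.11-fold and 1.40-fold.

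Nfkb2 (ENSMUSG00000025225, chromosome 19, 46292759 to 46300824, plus strand, GRCm39), the precursor subunit of the non-canonical pathway, had the largest response of the family. Its level was 39.9, 42.0, 43.3 and 35.1 CPM in M + vector and 199.7, 202, 203 and 200.2 CPM in MR + vector, so that the RANKL libraries lay within 3 CPM of one another and far above the others. The change was 2.33 ± 0.05 on the log2 scale (SE, n = 4 and 4, adjusted p = 1.93e-26 by edgeR), which ranked 74 of the 11559 genes. Under iBRD9, Nfkb2 went from 46.3, 49.1, 46.5 and 42.7 CPM in M + iBRD9 to 210.0, 206, 199 and 209.9 CPM in MR + iBRD9, a change of 2.16 ± 0.05 (adjusted p = 9.1e-26 by edgeR). Its last 299 bases overlap Psd on the other strand, and Psd had 64 to 131 counts without RANKL and 315 to 440 with it, against 612 to 875 and 3111 to 3540 counts for Nfkb2. Since the strand setting of the counting is unknown here, reads in the overlap cannot be told apart.

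Relb (ENSMUSG00000002983, chromosome 7, 19340142 to 19363363, minus strand), whose protein is held in the cytoplasm by p100, stood at 14.5, 17.5, 18.0 and 16.7 CPM in M + vector and at 48.9, 51.3, 52.4 and 53.0 CPM in MR + vector. This was a rise of 1.62 ± 0.07 (3.08-fold, adjusted p = 2.8e-19 by edgeR). The RANKL libraries were all above the highest library without RANKL, with iBRD9 as well, where Relb was at 21.0, 22.4, 23.4 and 20.7 CPM without RANKL and 53.4, 52.6, 50.3 and 55.1 CPM with it.

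Among the inhibitors, Nfkbia (ENSMUSG00000021025, chromosome 12, 55536195 to 55539432, minus strand) had the largest response. IkB alpha is the inhibitor that is resynthesised after NF-kB activation and returns Rela dimers to the cytoplasm. Nfkbia was at 47.7, 53.1, 41.3 and 44.1 CPM in M + vector and at 186, 176, 207 and 188 CPM in MR + vector. The change was 2.02 ± 0.06 (4.07-fold, adjusted p = 4.57e-23 by edgeR), and under iBRD9, from 47.5, 48.6, 48.0 and 54.6 CPM to 193, 204, 196 and 207 CPM, it was 2.01 ± 0.06 (adjusted p = 3.34e-23).

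Nfkbie (ENSMUSG00000023947, chromosome 17, 45866629 to 45874095, plus strand), the IkB epsilon gene, was at 12.7, 10.8, 11.0 and 11.0 CPM in M + vector and at 43.5, 35.7, 40.4 and 39.0 CPM in MR + vector. It rose by 1.80 ± 0.08 (3.49-fold, adjusted p = 1.79e-18 by edgeR). The nuclear IkB gene Bcl3 (ENSMUSG00000053175, chromosome 7, 19542387 to 19556695, minus strand) was at 10.2, 9.44, 9.44 and 9.58 CPM in M + vector and at 24.3, 24.7, 25.3 and 24.5 CPM in MR + vector, a rise of 1.35 ± 0.09 (2.55-fold, adjusted p = 1.17e-14). In both genes the groups were well apart. With iBRD9 present, RANKL raised Nfkbie by 1.91 ± 0.08 and Bcl3 by 1.05 ± 0.08 (adjusted p = 2.44e-19 and 1.97e-12).

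The remaining genes moved little. Nfkb1 (ENSMUSG00000028163, chromosome 3, 135290416 to 135397308, minus strand), the p105 and p50 gene, was at 124, 119, 124 and 114 CPM in M + vector and at 144, 149, 144 and 139 CPM in MR + vector, a rise of 0.26 ± 0.05 (adjusted p = 3.2e-05 by edgeR). Rela (ENSMUSG00000024927, chromosome 19, 5687511 to 5698158, plus strand), the p65 subunit of the canonical pathway, was at 91.3, 87.8, 86.5 and 86.7 CPM against 97.7, 100.5, 107 and 102 CPM, a rise of 0.21 ± 0.05 (adjusted p = 0.0012). Both log2 changes were several times smaller than that of Nfkb2, although the groups did not overlap. The response of Nfkbib (ENSMUSG00000030595, chromosome 7, 28457676 to 28466937, minus strand), the IkB beta gene, was 0.35 ± 0.07 (adjusted p = 0.000222), from 26.7, 31.4, 29.0 and 28.8 CPM to 40.3, 38.1, 34.8 and 34.9 CPM. Nfkbib overlaps Sirt2 over 778 bases on the other strand, and Sirt2 went the opposite way, with 2600 to 2902 counts in M + vector and 1754 to 1917 in MR + vector. It also overlaps Ccer2 over 718 bases, which had 0 counts in every library.

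Rel (ENSMUSG00000020275, chromosome 11, 23686847 to 23720970, minus strand), the c-Rel subunit typical of lymphoid and myeloid cells, had the weakest response. It was at 60.2, 56.6, 54.9 and 59.8 CPM in M + vector and at 65.0, 67.1, 60.5 and 63.7 CPM in MR + vector, and the lowest RANKL library lay only just above the highest library without RANKL. The rise of 0.15 ± 0.06 had an adjusted p of 0.0488 by edgeR. Leaving out 1 library ended the call in 8 of 16 cases (M + vector replicate 2 or 3, MR + vector replicate 1, 2 or 4, or MR + iBRD9 replicate 1, 2 or 4), with changes of 0.12 to 0.17 and adjusted p between 0.0281 and 0.137 over all 16. Without the filter on low counts it was 0.0657.

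**Figure D2:**
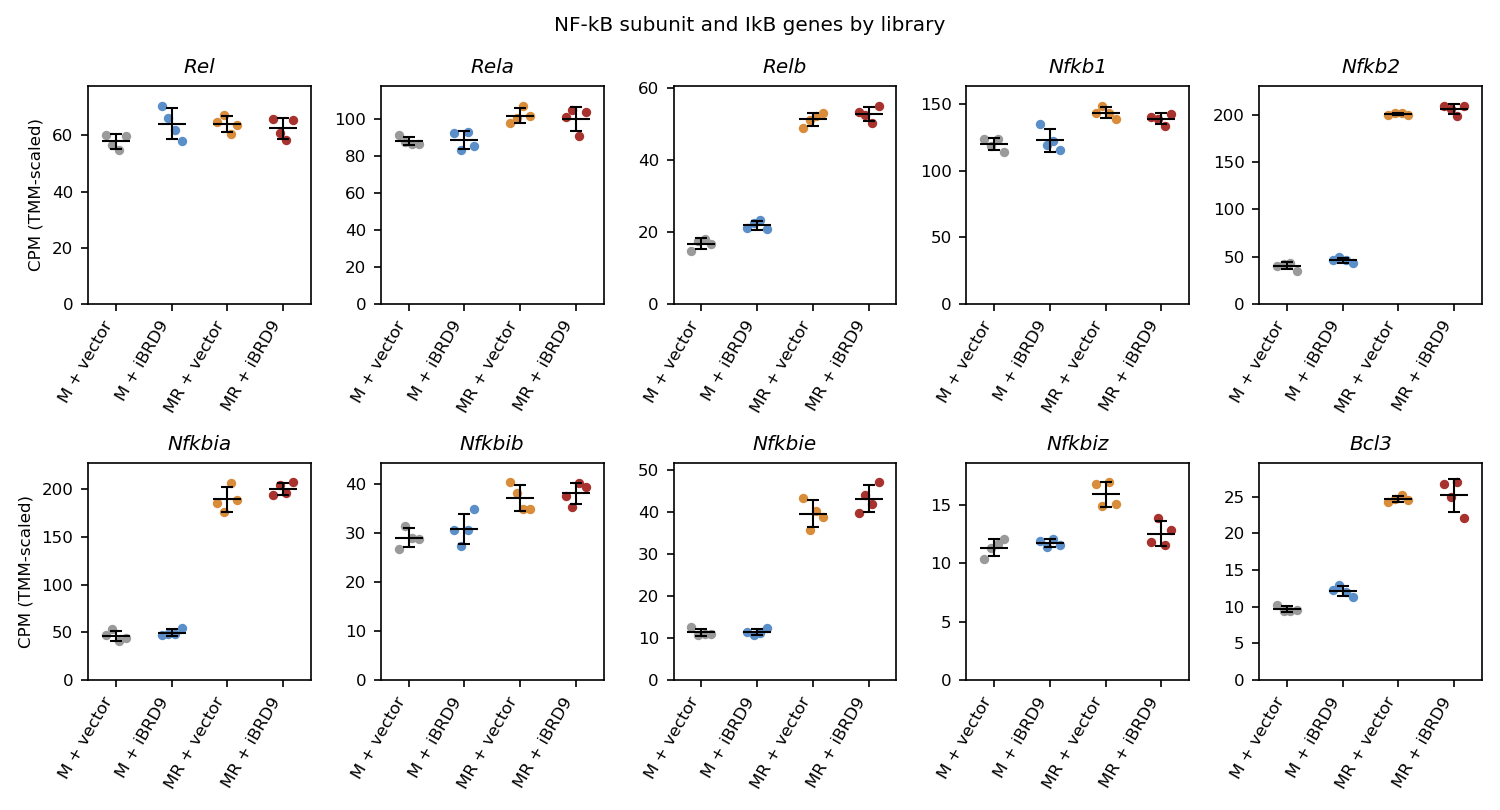
Level of each of the 10 genes in CPM (TMM-scaled, axis from 0) in the 4 libraries of each group, as points in the order of the replicate numbers, with the mean and SD as bars. Nfkb2, Nfkbia, Nfkbie, Relb and Bcl3 stand far higher in both RANKL groups, and Nfkbiz is higher in MR + vector (14.9 to 17.0 CPM) than in MR + iBRD9 (11.6 to 13.9 CPM).

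Under iBRD9, the comparison of MR + iBRD9 with M + iBRD9 gave 8 of the 10 genes called higher, with a median of 0.68, and 24.6% of all genes were called higher. The libraries did not overlap for 6 of the 10, against 42.8% of all genes. The genes that were not called were Rel, with a change of -0.04 ± 0.06 (adjusted p = 0.618, 95% interval -0.16 to 0.08), and Nfkbiz, with 0.10 ± 0.10 (adjusted p = 0.428, interval -0.10 to 0.29). Rela and Nfkb1 changed by 0.18 each and Nfkbib by 0.30.

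The order of the levels per length changed with RANKL. In M + vector, Nfkbia and Rela led at 28.6 ± 3.2 and 28.4 ± 0.75 FPKM (SD, n = 4) with overlapping libraries, followed by Nfkbib at 13.2 FPKM. Nfkb1 at 9.86 FPKM and Nfkb2 at 8.66 FPKM overlapped, as did Nfkb2 and Rel at 7.68 FPKM. Relb, Bcl3 and Nfkbie, at 4.25, 3.87 and 3.70 FPKM, overlapped in turn, and Nfkbiz was lowest at 2.24 FPKM. In MR + vector, Nfkbia reached 118 ± 8.0 FPKM and Nfkb2 came second at 44.1 ± 0.30 FPKM, above Rela at 33.3 ± 1.3 FPKM and Nfkbib at 17.1 FPKM. Relb, Nfkbie and Nfkb1, at 13.3, 13.1 and 12.0 FPKM, overlapped with their neighbours, and Bcl3 at 10.0 FPKM, Rel at 8.63 FPKM and Nfkbiz at 3.19 FPKM were each apart.

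As a share of the summed FPKM of the 5 subunits, Rela fell from 48.3% ± 0.98 in M + vector to 29.9% ± 0.78 in MR + vector (SD, n = 4), while its own level was slightly higher. The share of Nfkb2 went from 14.7% ± 1.1 to 39.6% ± 0.36 and that of Relb from 7.23% ± 0.71 to 11.9% ± 0.31. Nfkb1 went from 16.8% to 10.8% and Rel from 13.1% to 7.75%. Among the IkB genes, Nfkbia held 55.3% ± 2.4 without and 73.1% ± 1.5 with RANKL, and Nfkbib 25.6% ± 1.6 and 10.7% ± 1.1. These shares were computed from the same counts as the changes above and are a description. The non-canonical pair of Nfkb2 and Relb thus took up more of the subunit RNA than Rela alone in all 4 MR + vector libraries. Nfkb1 and Rel, at 10.8% and 7.75%, are not counted on either side of that comparison.

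The summed FPKM of the IkB genes divided by that of the subunits was 0.864, 0.956, 0.814 and 0.877 in the M + vector libraries and 1.49, 1.36, 1.52 and 1.44 in the MR + vector libraries. In M + iBRD9 it was 0.826, 0.863, 0.846 and 1.02, and in MR + iBRD9 it was 1.45, 1.51, 1.59 and 1.52. Every RANKL library was above every library without RANKL, and Nfkbia made up most of the sum. The ratio comes from the same counts as the gene changes above, so its test adds no separate support to them. A 2-sided exact permutation test gave p = 0.0286 for RANKL with vector and for RANKL with iBRD9, the smallest value that 4 against 4 allows, and 0.0572 after adjustment over the 4 comparisons of this ratio. For iBRD9 the same exact permutation test gave p = 0.2 with RANKL and 0.857 without it.

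**Figure D3:**
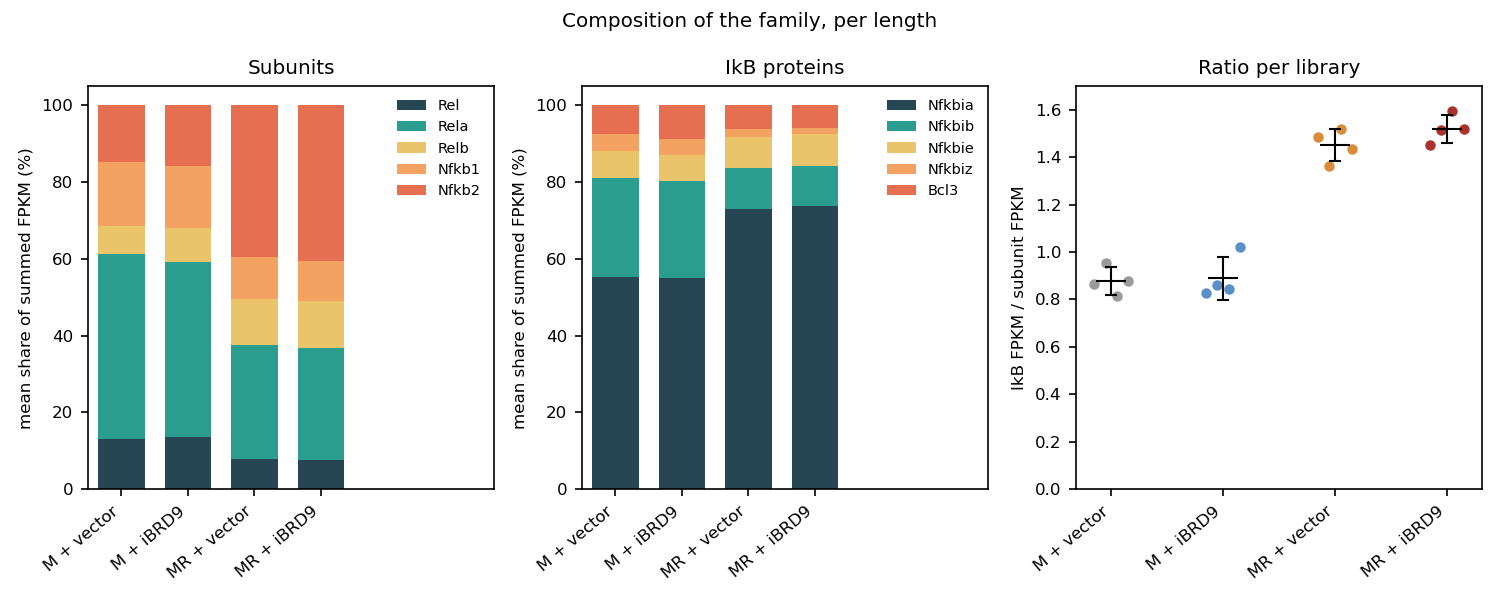
Mean share of each gene in the summed FPKM of the subunits (left) and of the IkB genes (middle), in percent for each group of 4 libraries, and the ratio of the summed IkB FPKM to the summed subunit FPKM in each library (right, points with mean and SD). Rela holds 48.3% of the subunit sum in M + vector and 29.9% in MR + vector, and the ratio is below 1.1 in all libraries without RANKL and above 1.3 in all with it.

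To find whether BRD9 inhibition changed the family during RANKL induction, MR + iBRD9 was compared with MR + vector. Of the 10 genes 1 was lower, Nfkbiz, and the other 9 did not pass the test. Over all genes 2.05% were called lower. Nfkbiz (ENSMUSG00000035356, chromosome 16, 55631738 to 55659262, minus strand) encodes IkB zeta, a nuclear IkB protein induced by Toll-like receptor and interleukin-1 signals and needed in mouse macrophages for a group of late inflammatory genes. Its level was 10.4, 11.3, 11.6 and 12.1 CPM in M + vector, 11.9, 11.4, 12.1 and 11.5 CPM in M + iBRD9, 16.8, 14.9, 17.0 and 15.1 CPM in MR + vector, and 11.9, 13.9, 11.6 and 12.9 CPM in MR + iBRD9. The MR + vector libraries stood above all other libraries, and the MR + iBRD9 libraries overlapped with those without RANKL. It was the 1 gene of the 10 whose MR + iBRD9 and MR + vector libraries did not overlap. Over all genes this held for 9.54%, so that 1 of 10 was near the background.

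RANKL with vector raised Nfkbiz by 0.49 ± 0.09 (adjusted p = 7.93e-05 by edgeR), and iBRD9 with RANKL lowered it by a log2 change of -0.35 ± 0.09 (adjusted p = 0.0361). Without RANKL the change with iBRD9 was 0.05 ± 0.10 (adjusted p = 0.84), and the test of the difference between the 2 responses to iBRD9 gave -0.39 ± 0.13 (adjusted p = 0.133), which did not pass. The call in MR + iBRD9 against MR + vector was lost without any 1 of the MR + vector libraries and without MR + iBRD9 replicate 1, 3 or 4, with changes of -0.40 to -0.31 and adjusted p of 0.0302 to 0.149 over the 16 fits. It was also lost with total counts as the only scaling (adjusted p = 0.0579), which moved the share of higher calls over all genes from 25.9% to 38.5%, and without the filter on low counts (0.0672). The summed neutrophil markers were at 81.7 to 101 CPM in MR + vector and 54.2 to 70.9 CPM in MR + iBRD9. Of the 8 tested, 4 were lower, against 2.05% of all genes. The macrophage markers were at 24293 to 25477 and 21690 to 22487 CPM, with 4 of 10 lower, against the same 2.05%. Most of that sum was Lyz2, at means of 19962 and 17623 CPM. Cd68, Cd14 and Itgam, with changes of 0.00, 0.04 and 0.01, were not called. The part of the neutrophil and macrophage markers in the value of Nfkbiz was not tested.

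For the other 9 genes the change with iBRD9 in the presence of RANKL lay between -0.05 and 0.13. The widest possible rise, from the 95% intervals, was that of Nfkbie, at 0.13 ± 0.07 (interval -0.02 to 0.27, adjusted p = 0.489 by edgeR). The interval was -0.06 to 0.14 for Nfkb2, -0.03 to 0.20 for Nfkbia and -0.09 to 0.17 for Relb. For Rela it was -0.13 to 0.08, for Nfkb1 -0.14 to 0.05 and for Rel -0.16 to 0.09. Nfkbib (-0.11 to 0.19) and Bcl3 (-0.13 to 0.19) were likewise not resolved from 0.

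The effect of iBRD9 in the absence of RANKL was examined in the same way. In M + iBRD9 against M + vector, 3 of the 10 genes were called higher, Relb, Bcl3 and Nfkb2, and 3.08% of all genes were called higher. The libraries did not overlap for 2 of the 10, Relb and Bcl3, against 10.1% of all genes. Relb had the clearest change: its M + iBRD9 libraries, at 20.7 to 23.4 CPM, were all above its M + vector libraries, at 14.5 to 18.0 CPM, and the change of 0.39 ± 0.07 (1.31-fold, adjusted p = 0.000863 by edgeR) was called without any 1 of the 16 libraries (adjusted p at most 0.00703).

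Bcl3 went from 9.44 to 10.2 CPM in M + vector to 11.3 to 12.9 CPM in M + iBRD9, a rise of 0.33 ± 0.09 (1.26-fold, adjusted p = 0.0244 by edgeR). Without M + vector replicate 2, 3 or 4 or M + iBRD9 replicate 2 or 3 it was no longer called, with an adjusted p of up to 0.0957. Nfkb2 rose by 0.20 ± 0.06 (adjusted p = 0.0241), with overlapping libraries of 35.1 to 43.3 CPM and 42.7 to 49.1 CPM. Its call was lost without M + vector replicate 1 or 4 or M + iBRD9 replicate 2 or 3, with an adjusted p of up to 0.154 and a change of 0.14 without M + vector replicate 4. With only the 8 libraries of these groups in the fit, neither passed (adjusted p = 0.0859 for Bcl3 and 0.115 for Nfkb2).

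The other 7 genes did not pass. Rel was at 70.6, 66.3, 62.0 and 58.0 CPM in M + iBRD9, a change of 0.15 ± 0.06 (adjusted p = 0.136), and was called without M + iBRD9 replicate 4, its lowest library of that group (0.19, adjusted p = 0.0372). Nfkbia and Nfkbib had changes of 0.10 and 0.09, and Rela, Nfkb1, Nfkbie and Nfkbiz of 0.01 to 0.05.

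Whether the effect of iBRD9 depended on RANKL was tested by the interaction. Of the 10 genes 1 was called, Relb, with a value of -0.35 ± 0.10 on the log2 scale (95% interval -0.55 to -0.15, adjusted p = 0.0464 by edgeR), and 1.08% of all genes were called lower. The effect of iBRD9 on Relb was 0.39 without RANKL and 0.04 with RANKL, and equally the effect of RANKL was 1.62 with vector and 1.27 with iBRD9. The call held in 3 of the 16 fits that left out 1 library (without M + iBRD9 replicate 1 or 4 or MR + vector replicate 1), with values of -0.38 to -0.28 and adjusted p of 0.0255 to 0.127. It was also lost with RLE size factors (0.0532), with total counts (0.0636) and without the filter (0.0577). Total counts moved the share of higher calls over all genes in the interaction from 48.1% to 67.3%. The values of Nfkbiz, Bcl3, Rel and Nfkb2 were -0.39 ± 0.13, -0.30 ± 0.12, -0.18 ± 0.08 and -0.17 ± 0.07, with adjusted p of 0.133 to 0.307, and those of the remaining 5 genes lay between -0.08 and 0.10.

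**Figure D4:**
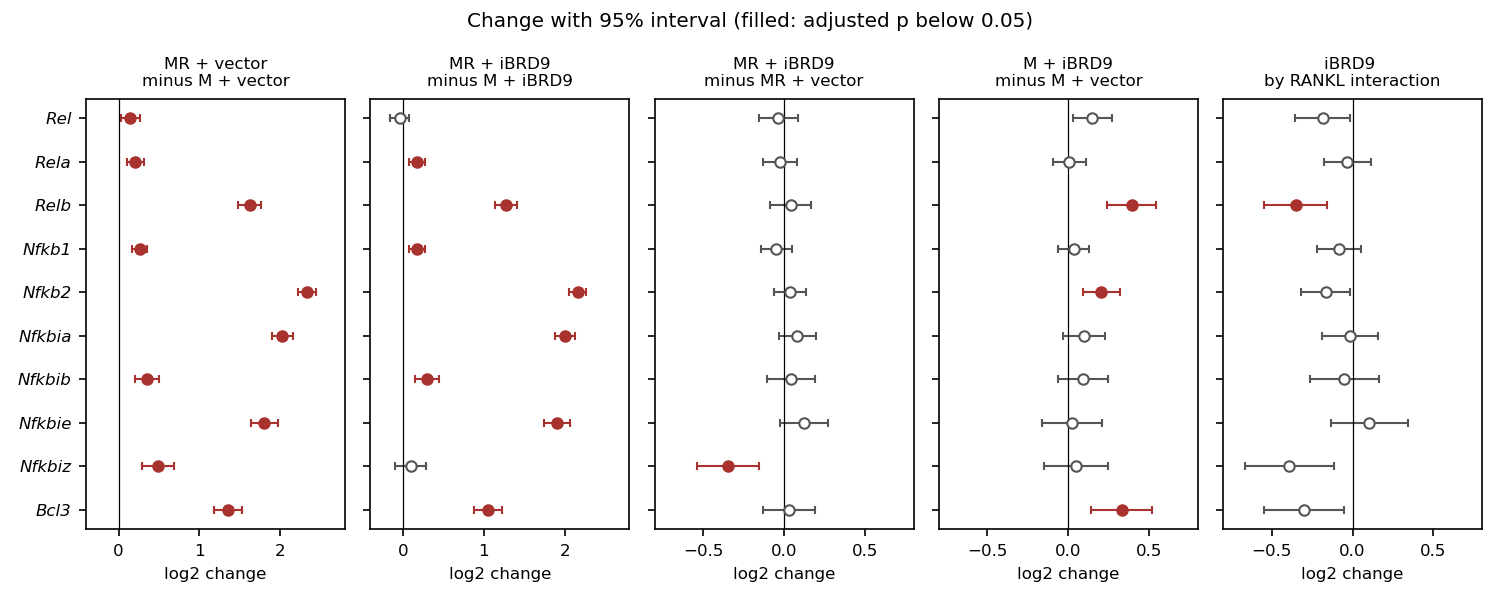
Log2 change of each of the 10 genes in the 5 comparisons of edgeR's fit, with 95% intervals as bars and filled points for an adjusted p below 0.05. The RANKL panels run from -0.4 to 2.8 and the iBRD9 and interaction panels from -0.8 to 0.8, where the called genes are Nfkbiz (MR + iBRD9 minus MR + vector), Relb, Nfkb2 and Bcl3 (M + iBRD9 minus M + vector) and Relb (interaction).

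The genes that rose most with RANKL followed each other closely over the 16 libraries. As a description across libraries that share the RANKL groups, Pearson's r of log2 CPM was 0.99 between Nfkbia and Nfkbie and between Nfkb2 and Nfkbia, and 0.98 between Relb and Bcl3. Within the groups, as deviations from the group means, the same pairs had r of 0.40, -0.08 and -0.31. The genes outside the family with the pattern most like that of Nfkb2, among 9404 genes, were Zmiz2 and C3 (r of 0.998 and 0.997), and for Nfkbia they were Gtf3c5 and Gpr132 (0.995 each). Fos and Nadk were most like Nfkbie (0.996 each), Junb and Cd82 most like Relb (0.993 and 0.992), and Cd82 and Nfam1 most like Bcl3 (0.991 and 0.988). For the genes that moved little, the nearest patterns were less close, at 0.945 and 0.937 for Nfkb1 (Myo1g and Prex1), 0.941 and 0.918 for Rela (Myo1g and Cep192), 0.923 and 0.922 for Nfkbib (Spi1 and Marcksl1), 0.911 and 0.903 for Nfkbiz (Zcchc4 and Sav1) and 0.848 and 0.841 for Rel (Usf3 and G2e3).

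The genes that act on the family were followed through 5 lists, some of which share genes. Of the 10 genes of the non-canonical arm, 8 were higher in MR + vector than in M + vector, where 20.1% of all genes tested were called higher, with a median change of 0.30 against a median of about 0 over all genes. Birc3, which encodes the ubiquitin ligase cIAP2, went from 45.4 to 47.5 CPM to 221 to 240.5 CPM (2.31 ± 0.05, adjusted p = 8.64e-28 by edgeR). Traf3 and Traf2, adaptors of the complex that degrades NIK, rose by 1.09 ± 0.06 and 0.91 ± 0.07 (adjusted p = 5.44e-17 and 5.32e-13). The other 5 that rose were Map3k14, the NIK gene (0.39), Tnfrsf1b, the TNF receptor 2 gene (0.36), Tnfrsf11a, the RANK gene (0.23), Birc2 (0.23) and Chuk, the IKK alpha gene (0.18). Cd40 and Ltbr did not pass (0.10 and -0.13). Under iBRD9 6 of the 10 were higher, against 24.6% of all genes.

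Of the 12 IKK and upstream kinase genes, 3 were higher, Ikbke (0.29), Map3k14 and Chuk, and 1 was lower, Ripk1, from 150 ± 6.8 to 134 ± 6.1 CPM (SD, n = 4), a change of -0.16 ± 0.04 (adjusted p = 0.00397 by edgeR). Both counts stood beside 20.1% of all genes called higher and 20.6% called lower, so that 3 of 12 was near the background. Ikbkb and Ikbkg, the genes of IKK beta and of the scaffold NEMO, had changes of -0.01 and 0.02 and did not pass. The 5 genes of the SCF beta-TrCP ligase, which marks IkB for degradation, had changes between -0.09 (Btrc) and 0.12 (Rbx1) and did not pass, with a smallest adjusted p of 0.1 (Rbx1). Of the 11 other genes related to IkB, 5 were higher, against the same 20.1% of all genes, among them Tnip3 (0.89), Nfkbid (0.71), which encodes the nuclear protein IkB NS, and Tnip1 (0.62), which encodes a binding partner of the deubiquitinase A20. The remaining ones were Nkrf (0.58) and Tnip2 (0.16).

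Among 27 tested NF-kB target genes outside the family, 15 were higher and 4 were lower, against 20.1% and 20.6% of all genes called higher and lower. Traf1, an adaptor of TNF receptors, went from 7.94 to 12.8 CPM in M + vector to 131 to 144 CPM in MR + vector (3.74 ± 0.08, adjusted p = 1.14e-27 by edgeR), and Icam1, an adhesion molecule, rose by 1.44 ± 0.05. The genes that fell were Cd83 (-1.42), Ccl4 (-0.96), Bcl2l1 (-0.74) and Ccl3 (-0.52), and 4 of 27 was not above the share of all genes called lower. Under iBRD9 14 were higher and 7 were lower, against 24.6% and 25.8% of all genes, so that 7 of 27 was near the background.

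The 5 lists held 60 distinct genes that were tested. In MR + iBRD9 against MR + vector, 1 of the 60 (1.67%) was called in either direction, against 2.77% of all genes, the chemokine gene Ccl3, at 56.4 ± 6.8 and 74.0 ± 6.9 CPM (0.39 ± 0.07, adjusted p = 0.000612 by edgeR). In M + iBRD9 against M + vector, 4 of the 60 (6.67%) were called, against 6.81% of all genes. Tnfrsf1b (0.16) and Icam1 (0.22) were higher, and Tnip3 (-0.25) and Tnfaip3 (-0.29), the A20 gene, were lower. The interaction was called for 3 of the 60 (5%), against 2.08% of all genes. Tnfrsf1b had, as Relb did, a negative interaction, at -0.30 ± 0.06 (adjusted p = 0.00577). It went from 273 ± 11.6 to 306 ± 12.4 CPM with iBRD9 in the absence of RANKL, and from 351 ± 16.4 to 318 ± 6.0 CPM in its presence, where the change was not called (adjusted p = 0.0516). The other two genes with a called interaction were Tnf (0.78 ± 0.21, adjusted p = 0.041) and Saa3 (-1.25 ± 0.32, adjusted p = 0.0297), which was at 1.79 to 5.65 CPM in all libraries.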

How the data were processed

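RNA was extracted with TRIzol, and libraries were made with the NEBNext Ultra II kit. Reads were trimmed with Cutadapt, aligned to GRCm39 with HISAT2 and counted per gene with HTSeq. The authors deposited raw read counts per gene and library, and FPKM that the authors made from them with a gene length in bases. The strand setting and annotation release are not given in the sources used here. No column lacked a sample.

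Genes passing filterByExpr were tested with edgeR 4.0.16 (R 4.3.3, TMM, glmQLFit and glmQLFTest, two-sided) in 1 fit of 16 libraries without covariates (a mean for each group, 12 residual degrees of freedom, biological coefficient of variation 5.86%). The threshold was 0.05 on p-values adjusted over all genes tested by the Benjamini-Hochberg method. In same-group pairs the counts differed by 2.81 to 11.3 in chi-square per degree of freedom, so no library was a copy. The test was checked on simulated data, with planted changes in 1 comparison that were larger than the iBRD9 changes called in the family. That check does not cover changes as small as those.

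The genes, lists and tests were chosen with earlier results of these data known. Named were all 10 genes, up to 3 called genes of each list and comparison with the smallest p, and 2 genes most like each (at least 5 CPM). Others of the lists, such as Ripk1, Cd83, Ccl4, Ccl3, Bcl2l1 and those not called, were named after their values were seen. Alternatives were RLE factors, total counts, no filter, a replicate block, DESeq2 1.42.0, only the compared groups, and leaving out each library.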

Additional observations from a re-analysis of the deposited data

Results flagged for a closer look

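Chance places about 1 in 20 groups so far from its other samples, and 40 sets of 4 libraries (10 genes in 4 groups) were examined. The level of Nfkbia in M + iBRD9 replicate 4, 54.6 CPM, lay apart from the other libraries of its group at 47.5 to 48.6 CPM. The level of Nfkbie in M + vector replicate 1, 12.7 CPM, lay apart from the others at 10.8 to 11.0 CPM. The effect of iBRD9 on Relb differed between cultures with and without RANKL by -0.35 ± 0.10 on the log2 scale (adjusted p = 0.0464 by edgeR).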

How the results depend on the processing

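The RANKL calls of all members but Rel kept their direction and their side of the threshold in every alternative, and so did that of Relb for iBRD9 without RANKL. With RLE factors, total counts or no filter, 0 members were called in the interaction, and with total counts or no filter 0 in MR + iBRD9 against MR + vector. With only the compared groups, 1 member was called in M + iBRD9 against M + vector, and all genes called were 452 there (787 with all groups) and 499 in MR + iBRD9 against MR + vector (320). Calls in the interaction (241) were 388 with no filter, 371 with DESeq2 and 421 with a replicate block, which changed no member's call. With the block, all genes called were 417 in MR + iBRD9 against MR + vector and 1025 in M + iBRD9 against M + vector. Same-numbered libraries of different groups deviated together little (r of -0.05 to 0.18 over 24 pairs, 2 over 0.1). The median r was 0.02 for them and -0.02 for libraries of other numbers, and 7 of 16 correlated best with their own number. The numbers were not taken as pairs in the main fit, and whether they are pairs was not tested. The causes were not tested. Changes near 0 turned sign: that of Rela in M + iBRD9 against M + vector was -0.00104 with RLE, -0.000915 with no filter and -0.00108 with DESeq2, and with total counts that of Rel in MR + iBRD9 against M + iBRD9 was 0.00676 and the interaction of Nfkbia 0.00926.

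Leaving out 1 library, members called ranged from 0 to 1 in MR + iBRD9 against MR + vector and in the interaction, and from 1 to 4 in M + iBRD9 against M + vector. All genes called ranged from 199 to 411, 73 to 541 and 463 to 1104. Uncalled changes that turned sign ranged from -0.0716 to 0.00989 (Rel, MR + iBRD9 against M + iBRD9). In MR + iBRD9 against MR + vector they were -0.0473 to 0.0195 (Rela) and -0.00296 to 0.0885 (Bcl3). In M + iBRD9 against M + vector they were -0.0234 to 0.0311 (Rela), -0.0138 to 0.0558 (Nfkb1) and -0.0275 to 0.0724 (Nfkbie). In the interaction they were -0.0543 to 0.0124 (Rela), -0.0745 to 0.0482 (Nfkbia) and -0.0961 to 0.025 (Nfkbib). The iBRD9 calls of Nfkbiz, Bcl3 and Nfkb2, the interaction call of Relb and the RANKL call of Rel with vector each depended on single libraries.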
